A study of Mus musculus with 24 samples.

Results

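The 36 genes described here are interferon-stimulated genes, chosen by name from the 24970 gene symbols that the 4 expression tables of the series list. They were sorted by role into ISG15 and the enzymes that attach or remove it (Isg15, Usp18, Herc6), the IFIT proteins (Ifit1, Ifit2, Ifit3, Ifit3b), transcription factors (Irf1, Irf7, Irf9, Stat2), oligoadenylate synthetases (Oas1a, Oas1g, Oas2, Oas3, Oasl1, Oasl2), Mx GTPases (Mx1, Mx2), guanylate-binding proteins (Gbp2, Gbp3, Gbp7), nucleic acid sensors (Ifih1, Ddx58, Dhx58, Zbp1), and 10 membrane and other effectors (Rsad2, Bst2, Cmpk2, Rtp4, Xaf1, Trim30a, Parp14, Ifi44, Ifi35, Ifi27l2a). RNA was sequenced from 24 mouse libraries, and each of the 4 kinds of sample compared knockout with control. Controls had the genotype Sftpc-CreER/+; R26-tdT/+, knockouts carried let7afd-/- besides both of these alleles, and every mouse, controls included, received tamoxifen. The series title concerns let-7 in alveolar type 2 (AT2) cells and lung fibrosis. Sftpc-CreER acts in AT2 cells, the surfactant-making cells of the alveolus, so in a whole lung most other cells keep their let-7 genes. The AT2 cells were flow-sorted 6 days after tamoxifen, with 3 mice pooled in each of the 3 libraries per genotype. Whole lungs were taken at 6 days (3 libraries per genotype) and after 6 months with booster tamoxifen (4 per genotype). Organoids were grown for 14 days in AMM medium from AT2 cells of mice given tamoxifen 6 days earlier, with 2 libraries per genotype.

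Type I interferons bind the receptor pair IFNAR1 and IFNAR2, and the kinases JAK1 and TYK2 then phosphorylate STAT factors, STAT2 among them. These factors join IRF9 and bind the interferon-stimulated response element (ISRE) in promoters, which turns on most of the genes above. Interferon gamma, made mainly by NK and T cells, signals through its own receptor and IRF1 and acts most strongly on the guanylate-binding proteins and the immunity-related GTPases. In the lung the response is known for limiting the spread of respiratory viruses in epithelium and macrophages, and lung cells express many of its genes at a low level without infection.

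The microRNAs removed in the knockouts share one seed, which is why their sequences are shown first. They are RefSeq mature sequences (GRCm38.p6, minus strand of chromosome 13), with bases 2 to 8, the seed, in capitals.
mmu-let-7a-5p: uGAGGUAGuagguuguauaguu
mmu-let-7f-5p: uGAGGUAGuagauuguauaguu
mmu-let-7d-5p: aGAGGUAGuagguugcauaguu
A 7-base match to this seed (CTACCTC or TACCTCA) was present in the longest annotated 3′ UTR of 6 of the 36 genes, or 16.7%, beside 16.5% of 20821 genes with a 3′ UTR of at least 50 bases. The 6 genes were Herc6, Stat2, Oas2, Oasl2, Gbp7 and Parp14. The 8-base match was found in 1 member, Oasl2, or 2.78%, beside 3.597% of all genes. The sites of Oasl2 and of Gbp7, a member whose level fell in the lung at 6 months, are given with the match in capitals.
Oasl2 3′ UTR site: ttacgcctccCTACCTCAtccctagact
Gbp7 3′ UTR site: tgataaacttCTACCTCcagtgattga
The share of members with a let-7 match was thus close to that of all genes, and a match is a description of letters, not of a working site. All 24 libraries, controls included, had 0 TPM for the precursor genes Mirlet7a-1, Mirlet7f-1 and Mirlet7d, which leaves the genotype unchecked here; mature microRNAs have no poly(A) tail and escape this library type.

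An ISRE-like motif, GAAA followed after NN by a second GAAA, was present in the promoter windows (250 bases before to 50 after the start site, RefSeq, GRCm38.p6) of 16 of the 27 members that have a window, or 59.3%. The same motif was found in 3.99% of 27018 genes with a window. The shorter motif TTCNNNGAA, a GAS-like site, was present in 6 of the 27 members, or 22.2%, beside 9.55% of all genes. Both motifs were searched on both strands, and matches can overlap. The windows below are those of Isg15, which holds 3 overlapping ISRE-like matches, of Gbp7, Gbp3 and Gbp2, which fell in the lung at 6 months, and of Oas1a and Oas1g, which rose there. Capitals mark the matches.
Isg15 (chr4:156200840-156200931, minus strand): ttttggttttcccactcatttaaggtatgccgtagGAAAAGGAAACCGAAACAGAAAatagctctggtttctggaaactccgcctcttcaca
Gbp7 (chr3:142530248-142530327, plus strand): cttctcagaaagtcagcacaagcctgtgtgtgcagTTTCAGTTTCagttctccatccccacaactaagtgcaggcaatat
Gbp3 (chr3:142559964-142560049, plus strand): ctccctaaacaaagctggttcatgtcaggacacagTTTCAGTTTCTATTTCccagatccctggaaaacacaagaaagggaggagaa
Gbp2 (chr3:142620569-142620648, plus strand): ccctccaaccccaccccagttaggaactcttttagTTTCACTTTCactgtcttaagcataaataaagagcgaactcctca
Oas1a (chr5:120907495-120907580, minus strand): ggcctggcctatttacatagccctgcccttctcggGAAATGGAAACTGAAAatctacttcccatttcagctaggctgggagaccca
Oas1g (chr5:120887581-120887666, minus strand): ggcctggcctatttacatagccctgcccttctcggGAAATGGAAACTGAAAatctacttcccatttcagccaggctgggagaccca
Genes that fell and genes that rose both held the motif: at 6 months, 4 of the 16 members with it fell and 2 rose, and 7 of the 11 members with a window but no match fell. The Oas1a and Oas1g stretches are nearly the same, as are the genes, so reads may be split between them and their values are uncertain as separate genes. The same holds for Ifit3 with Ifit3b and, to a lesser degree, for the Gbp and Mx genes. Several members sit side by side in the genome (GRCm38, GENCODE M21): Ifit2, Ifit3, Ifit3b and Ifit1 at chr19:34550694-34650009, Gbp7, Gbp3 and Gbp2 at chr3:142530342-142638008, Oas2, Oas3, Oas1g and Oas1a at chr5:120730333-120907521, and Rsad2 beside Cmpk2 at chr12:26442746-26479837. The libraries did not keep the strand, so reads of Irf7 and Phrf1, Dhx58 and Dhx58os, Rtp4 and Masp1, or Usp18 and Gm44148, which overlap on opposite strands, cannot be told apart.

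Levels are TPM, a length-scaled share of all transcripts that can be compared between genes of one library; without read numbers the depth behind a value, and its counting error, cannot be given. Each library summed to 999920 to 999972 TPM and held 11814 to 14175 genes at 1 TPM or more. Summed levels of 10 AT2 markers such as Sftpc were 157632 to 260476 TPM in the sorted cells and 29468 to 54848 TPM in the lungs. In organoids they were 16271 to 49168 TPM in controls and 75609 to 83057 TPM in knockouts. The sorted cells and the knockout organoids thus stood above every lung, and the control organoids did not. Nothing in the labels says that the organoid libraries were separate cultures of separate mice, so p-values there measure the spread between these samples, which may be technical. In bulk samples, fewer cells of a type and less RNA per cell cannot be told apart. Fold changes below are log2 differences of TPM + 1, knockout minus control, which understate the change of genes at a low level. A gene was tested where it reached 1 TPM in a number of libraries equal to the size of the smaller group, and it passed at a Benjamini-Hochberg adjusted p under 0.05 over all genes tested in that table (limma).

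In control mice the members were much lower in sorted AT2 cells than in whole lung. The median member had a level of 3.07 TPM in control AT2 cells, 34.2 TPM in control lungs at 6 days, 26.0 TPM in control lungs at 6 months and 4.52 TPM in control organoids; the tables were scaled separately, so these are levels side by side and no test was made. All 36 members were lower in control AT2 cells than in control lungs at either time. The order of genes differed with the tissue: Irf1, an early target of interferon gamma, was the highest member in AT2 cells (100.6 ± 24.0 TPM, SD, n = 3), Ifi27l2a, a small membrane protein of the ISG12 family, in the lung (416 ± 111 TPM at 6 days, n = 3), and Bst2, tetherin, which holds budding virus at the cell surface, in organoids (61.3 ± 11.5 TPM, n = 2). In AT2 cells 9 members were too low to test (Ifit1, Ifit2, Ifit3b, Oas1g, Oas2, Oas3, Mx1, Mx2 and Rsad2). In organoids 7 were too low (Oas2, Oas3, Oasl1, Mx2, Gbp3, Gbp7 and Trim30a), whereas all 36 were tested in both lung tables. Mx1, a GTPase that blocks influenza virus in mice with an intact gene, was at 0.161 ± 0.0826 TPM in control AT2 cells (n = 3) and at 26.4 ± 3.19 TPM in control organoids (n = 2).

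**Figure D1:**
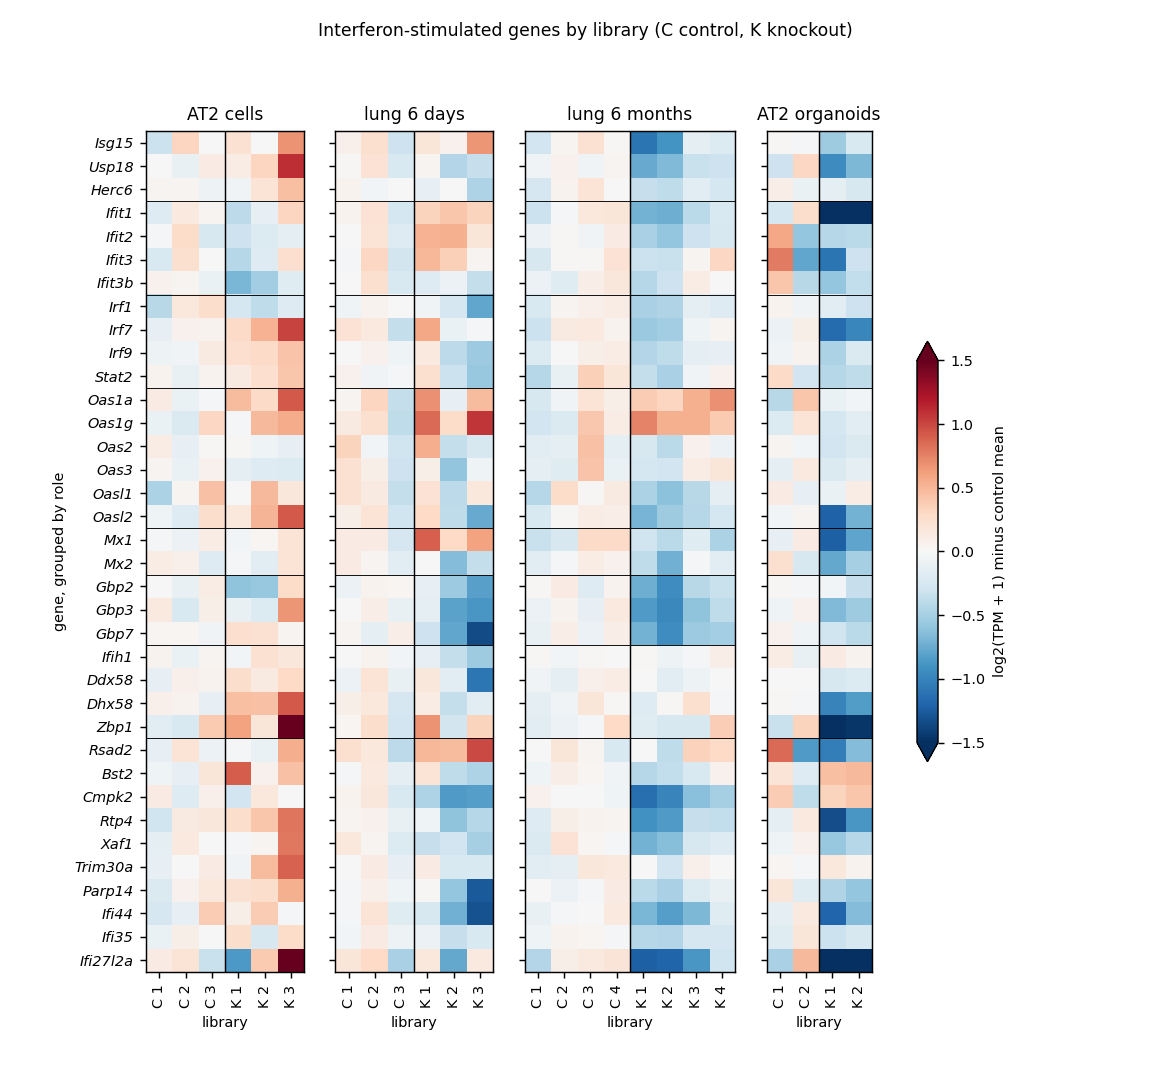
Each of the 36 genes (rows, grouped by role) in each library (columns, C control and K knockout), as log2(TPM + 1) minus the mean of that table's controls; red is higher and blue is lower than the controls, and colours saturate at the ends of the scale. Red tones gather in knockout 3 of the AT2 cells, blue tones in knockouts 1 and 2 of the lungs at 6 months and in both organoid knockouts, while Oas1a and Oas1g are red in all 4 knockout lungs at 6 months.

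In sorted AT2 cells 6 days after tamoxifen, no member passed the test, and 23 of the 27 members tested had higher means in knockouts. The median log2 fold change was 0.27, against 0.08 over all 12109 genes tested. By the adjusted test 0 members were higher, where 6.62% of all genes were higher, and 0 were lower, where 1.22% of all genes were lower; at an unadjusted p under 0.05, 11 of the 27 members were higher, or 40.7% beside 20.5% of all genes, and 0 were lower, beside 6.75%. The groups did not overlap, knockouts above controls, for 9 of the 27, where 25.4% of all genes did so, and for 0 the other way (8.31% of all genes). Of the members too low to test, Ifit3b (1.06 against 0.505 TPM) and Oas3 (0.309 against 0.155 TPM, group means) had all knockouts below all controls. Ifit1, Ifit2 and Oas2 had lower means in knockouts and Oas1g, Mx1, Mx2 and Rsad2 higher means, with overlap.

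Dhx58, which encodes LGP2, a regulator of RNA sensing, came closest to the threshold. Its levels were 2.50, 2.43 and 2.05 TPM in controls and 3.52, 3.51 and 5.27 TPM in knockouts, a log2 fold change of 0.60 ± 0.17 (SE, adjusted p = 0.0642). All 3 knockouts lay above all 3 controls, with knockout 3 highest. Irf7, the factor that amplifies type I interferon production, was at 4.17, 4.90 and 4.84 TPM in controls and at 5.86, 7.09 and 10.3 TPM in knockouts (0.61 ± 0.18, adjusted p = 0.0830), again without overlap. Irf9, the DNA-binding partner of STAT2, was at 18.4, 18.8 and 21.6 TPM against 23.5, 24.2 and 26.8 TPM (0.33 ± 0.10, adjusted p = 0.0760). Stat2 itself was higher by 0.27 ± 0.11 (adjusted p = 0.156), also without overlap.

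Of the antiviral effectors, Oas1a, an oligoadenylate synthetase whose product switches on RNase L, was at 1.11, 0.805 and 0.899 TPM in controls and 1.69, 1.36 and 2.66 TPM in knockouts (0.56 ± 0.20, adjusted p = 0.117). Rtp4, an interferon-induced effector active against flaviviruses, was at 4.18, 6.00 and 6.19 TPM against 6.67, 7.49 and 10.1 TPM (0.49 ± 0.18, adjusted p = 0.132). Parp14, an ADP-ribosyltransferase, was at 10.3, 12.8 and 13.7 TPM against 14.5, 14.8 and 18.1 TPM (0.34 ± 0.13, adjusted p = 0.142). In these 3 genes each knockout library lay above each control library, by a small margin in Rtp4 and Parp14. Oas1a met the filter of 1 TPM through its knockouts, as only control 1 of its controls reached that level.

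Isg15, a ubiquitin-like protein that is both secreted and attached to other proteins, was at 9.02, 14.6 and 11.6 TPM in controls and at 13.6, 11.6 and 19.0 TPM in knockouts (0.30 ± 0.21, adjusted p = 0.382). Ifit3, which binds IFIT1 and strengthens its grip on viral RNA, was at 1.74, 2.79 and 2.20 TPM in controls and at 1.38, 1.80 and 2.83 TPM in knockouts (-0.13 ± 0.21, adjusted p = 0.739). Both genes overlapped between genotypes. Gbp2 and Irf1 had lower means in knockouts (-0.30 ± 0.23 and -0.28 ± 0.17), with overlap.

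Knockout 3 was the highest of the 6 AT2 libraries for 20 of the 27 members (the share of all genes is not given here). The median deviation of the members from the control mean was 0.13, 0.23 and 0.45 on the log2 scale in knockouts 1, 2 and 3, where the median of all genes was 0.10, 0.05 and 0.08. Without knockout 3 the median fold change of the members was 0.20 and that of all genes 0.08. Markers of other cells moved with the genotype: 6 of the 11 alveolar macrophage markers tested, such as Marco and Chil3, rose. The sum of the 13 listed markers was 32.5 to 65.0 TPM in controls and 159 to 301 TPM in knockouts, highest in knockout 1. The summed level of 6 genes common to leukocytes, such as Ptprc, was 9.85 to 31.7 TPM in controls and 49.2, 51.0 and 89.6 TPM in knockouts 1, 2 and 3, while of the 9 T and NK cell markers Ncr1 was at 0 and the sum stayed between 0.651 and 3.04 TPM. Of 3 haemoglobin and red cell markers tested, 2 rose (Hba-a1 and Hbb-bt). The sum of the 5 listed was 81.3 to 160 TPM in controls and 291, 285 and 481 TPM in knockouts 1, 2 and 3. The 10 AT2 markers summed to 245039 to 260476 TPM in controls and 157632 to 231174 TPM in knockouts. None of these 10 passed, 3 had higher means in knockouts, and their median fold change was -0.21. Their part in the values of the members was not tested.

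The other genes of the pathway gave several calls in these cells. Of 27 other type I interferon-induced genes tested, 6 rose and none fell: Phf11d, Epsti1, Eif2ak2, Lgals3bp, Ifi27 and Parp12. Phf11d was at 9.72, 8.01 and 8.29 TPM in controls and at 15.1, 13.5 and 17.3 TPM in knockouts (0.75 ± 0.12, adjusted p = 0.0142), and Epsti1 at 4.6, 4.42 and 4.62 TPM against 8.23, 8.4 and 11.9 TPM (0.90 ± 0.15, adjusted p = 0.0144). Eif2ak2, which encodes the RNA-activated kinase PKR, rose by 0.47 ± 0.09 (adjusted p = 0.0220) and Lgals3bp, a secreted glycoprotein, by 0.75 ± 0.14 (adjusted p = 0.0254). The median fold change of this list was 0.20, against 0.08 over all genes. Of 6 receptor genes, 1 rose (Ifngr2, a chain of the interferon gamma receptor, by 0.67 ± 0.14, adjusted p = 0.0308), and of 17 interferon-gamma-induced genes tested, 1 rose (Tap1, a peptide transporter for antigen presentation, by 0.46 ± 0.09, adjusted p = 0.0276). Each of these 8 calls was lost when some library was left out, with adjusted p of up to 0.124: that of Epsti1 without 2 of the 6 libraries, those of Phf11d and Lgals3bp without 3, of Eif2ak2 and Ifi27 without 4, of Ifngr2 and Tap1 without 5 and of Parp12 without any of the 6. Lgals3bp, Ifi27, Ifngr2, Tap1 and Parp12 also missed the threshold with no filter, and the last 4 with median-ratio scaling (adjusted p of up to 0.0681 over the settings tried). None of the 4 JAK and STAT genes, 11 sensing genes and 8 inhibitors tested passed. Ifnb1 and Ifng were listed at 0 TPM in all 6 libraries.

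**Figure D2:**
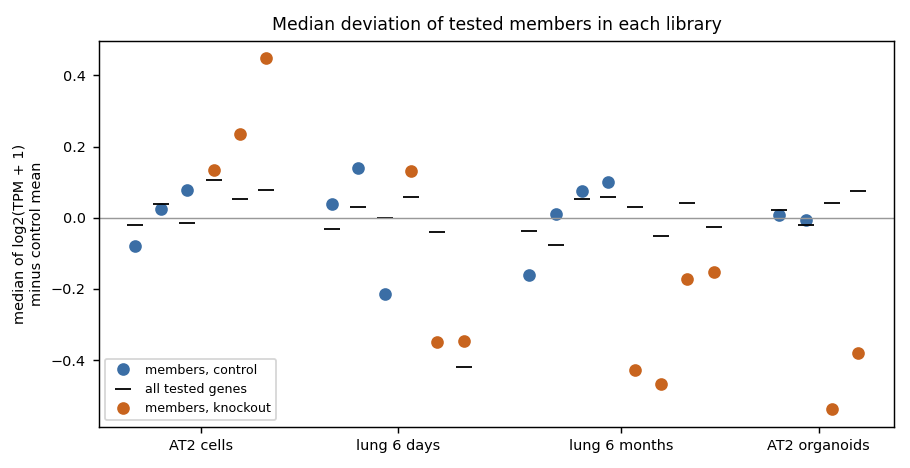
Median deviation of the tested members from the mean of that table's controls, on the log2(TPM + 1) scale, in each library, with controls in blue, knockouts in orange and the median of all tested genes as a black dash. The knockout points lie above the dashes in AT2 cells and below them in lungs at 6 months and in organoids; in lungs at 6 days knockout 1 lies above its dash, knockout 2 below it and knockout 3 slightly above it.

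In whole lungs 6 days after tamoxifen, no member passed the test, and the members were split, with 26 lower and 10 higher means in knockouts. The median log2 fold change of the 36 was -0.21, where the median of all 14154 genes tested was -0.14. Counted against the median of all genes, 22 members lay below and 14 above. With median-ratio scaling the median of all genes moved to 0.00 and that of the members to -0.06. By the adjusted test 0 members were higher (3.16% of all genes) and 0 were lower (3.79%), and at an unadjusted p under 0.05, 3 were higher (8.33%, beside 9.85% of all genes) and 5 lower (13.9%, beside 15.3%). The groups did not overlap for 4 members with higher knockouts (12.5% of all genes) and 8 with lower knockouts (23.7%). The counts depended on how libraries were weighted: with library weights 5 members were higher and 23 lower, where 27.3% of all genes were higher and 32.1% lower.

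Cmpk2, a mitochondrial nucleotide kinase, came closest to the threshold, at 35.9, 39.2 and 29.5 TPM in controls and 24.8, 18.8 and 19.0 TPM in knockouts (-0.72 ± 0.18, adjusted p = 0.0551). All knockouts lay below all controls. Gbp7, a guanylate-binding protein that acts against vacuole-dwelling pathogens, was at 40.5, 35.8 and 42.2 TPM against 31.6, 22.6 and 14.9 TPM (-0.81 ± 0.25, adjusted p = 0.0964). Its neighbour Gbp3 was at 47.6, 50.6 and 43.8 TPM against 42.6, 26.6 and 25.3 TPM (-0.61 ± 0.21, adjusted p = 0.127). In both, knockout 1 lay nearest to the controls and knockout 3 farthest below. Ifi44, a GTP-binding-like antiviral protein, was at 21.0, 24.8 and 18.7 TPM against 18.0, 12.5 and 8.05 TPM (-0.75 ± 0.27, adjusted p = 0.136).

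Other members had higher means. Rsad2 (viperin), whose product ends viral RNA chains, was at 18.8, 17.7 and 11.8 TPM in controls and at 22.7, 22.4 and 32.4 TPM in knockouts (0.65 ± 0.23, adjusted p = 0.128), opposite in sign to Cmpk2, which lies beside it on chromosome 12. Oas1g was at 3.18, 3.49 and 1.93 TPM against 5.88, 3.58 and 6.99 TPM (0.73 ± 0.27, adjusted p = 0.140). Neither overlapped between genotypes, though knockout 2 of Oas1g stood barely above control 2. Isg15 was at 82.3, 92.2 and 63.0 TPM in controls and 88.5, 82.0 and 124 TPM in knockouts (0.30 ± 0.21, adjusted p = 0.389). Irf7 was at 53.6, 51.2 and 35.6 TPM against 69.5, 42.8 and 45.7 TPM (0.16 ± 0.24, adjusted p = 0.699), and this sign turned when control 3 or knockout 1 was left out and with library weights. Ifit3 was at 90.9, 115 and 76.5 TPM against 131, 119 and 95.7 TPM (0.30 ± 0.19, adjusted p = 0.359). All 3 overlapped between genotypes.

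The knockout lungs at 6 days differed among themselves. Knockout 1 was the highest knockout for 28 of the 36 members (the share of all genes is not given here). Without it 6 members fell (16.7%, beside 6.81% of all genes) and 0 rose (3.25% of all genes) by the same test. Knockout 3 was low over all genes (median deviation -0.42). Without it 1 member was lower (7.08% of all genes) and 1 higher (7.19%), while the median of all genes was 0.01 and that of the members -0.11. Macrophage markers moved with the genotype: of 13 alveolar macrophage markers 4 rose and 2 fell, and their sum was 1664 to 1894 TPM in controls and 4047 to 13919 TPM in knockouts. Of 9 T and NK cell markers tested, 2 fell, Nkg7 and Gzma, both cytotoxic granule genes, and the sum of the 9 was 148 to 208 TPM in controls and 83.9 to 121 TPM in knockouts. The 7 endothelial markers had a median fold change of -0.70, none passing, and the haemoglobin and red cell markers summed to 8786 to 32294 TPM in controls and 12841 to 84804 TPM in knockouts, highest in knockout 3. Of 4 club cell markers 3 fell (151097 to 174633 against 69996 to 86702 TPM), as did 3 of 6 ciliated cell markers. Of 13 interstitial macrophage and monocyte markers 3 rose, as did 2 of the 6 genes common to leukocytes. Their part in the values of the members was not tested.

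Of the pathway genes at 6 days, 2 of 8 inhibitors rose. Socs1, which blocks JAK kinases, was at 4.76, 7.00 and 6.15 TPM in controls and at 13.6, 12.5 and 11.9 TPM in knockouts (0.99 ± 0.19, adjusted p = 0.0215). Socs3, which acts mainly on the receptors of the interleukin-6 family, was at 33.3, 58.2 and 32.7 TPM against 111, 96.8 and 65.7 TPM (1.14 ± 0.27, adjusted p = 0.0465). Neither overlapped between genotypes. Socs1 lost its call without control 1, control 3 or knockout 2 (adjusted p of up to 0.135). Socs3 lost its call without any of 4 of the 6 libraries (up to 0.203), and also with a pseudocount of 0.1 TPM, a filter of 5 TPM or none, and no variance trend (0.0525 to 0.0712). None of 6 receptors, 4 JAK and STAT genes, 15 sensing genes, 34 other type I genes and 24 interferon-gamma-induced genes tested passed, and the last list had a median of -0.24. Ifng was at 0.707 to 1.6 TPM in controls and 0.357 to 1.22 TPM in knockouts and was too low to test; Ifnb1 was listed at 0 TPM.

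In whole lungs at 6 months, 15 of the 36 members fell in knockouts and 2 rose, while 19 did not pass. All 3 guanylate-binding proteins, 7 of the 10 membrane and other effectors, 2 of the 4 IFIT genes, and Usp18, Irf1 and Oasl2 fell, whereas the 2 that rose, Oas1a and Oas1g, are both oligoadenylate synthetases. The median log2 fold change was -0.31, against -0.00 over all 14177 genes tested. The 2 higher members stand beside 15.9% of all genes that were higher, and the 15 lower members beside 13.9% of all genes that were lower. Without overlap between the genotypes, 1 member was higher (16.4% of all genes) and 11 were lower (14.2%).

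**Figure D3:**
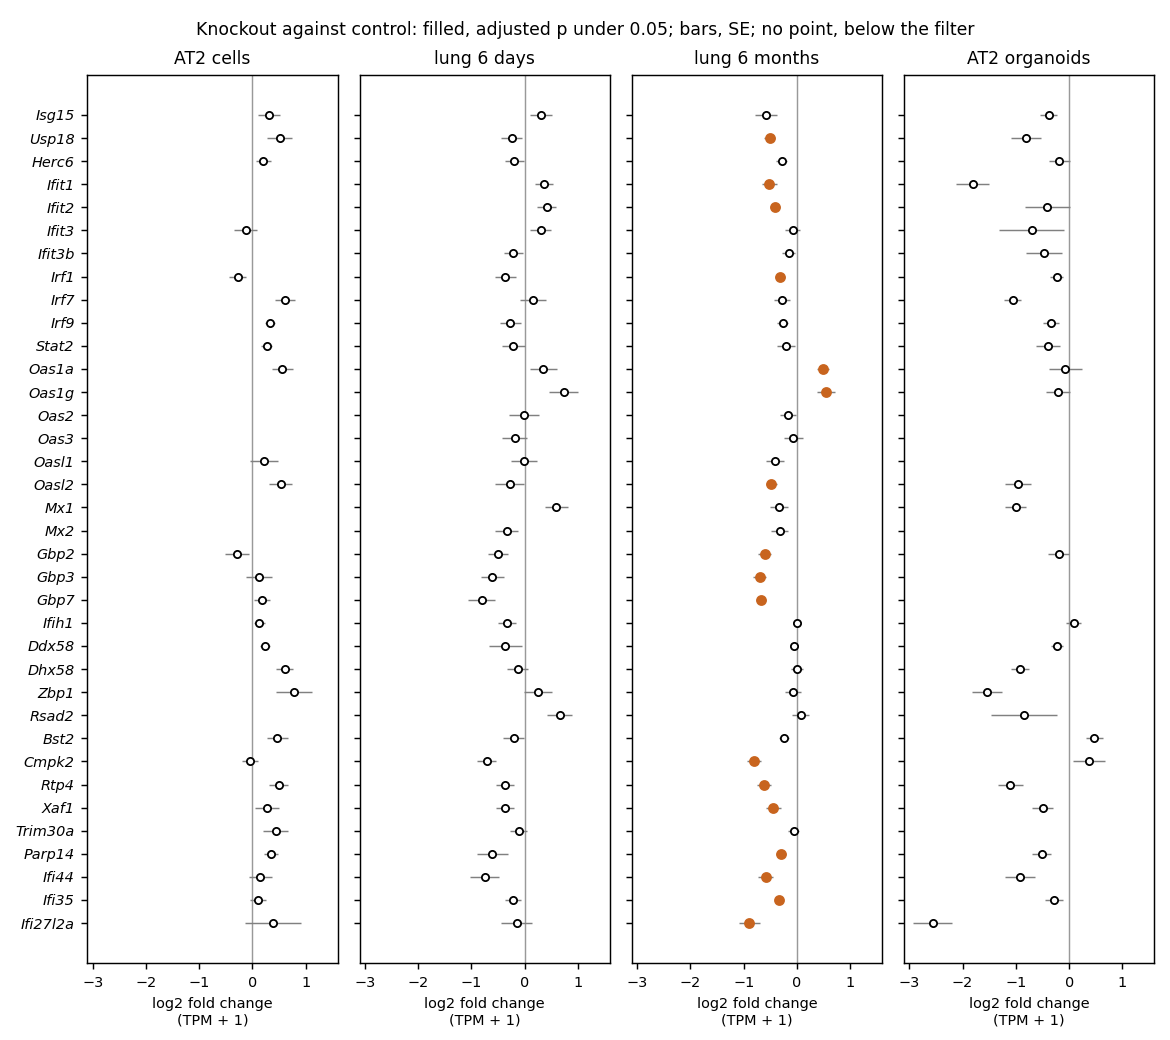
Log2 fold change (TPM + 1) of each member in knockouts against controls, 1 panel for each kind of sample, with SE bars; filled points passed at an adjusted p under 0.05 and members below the filter have no point. Filled points appear only in lungs at 6 months, 15 to the left of 0 and 2 (Oas1a and Oas1g) to the right, and the organoid points reach farthest left, to -2.56 for Ifi27l2a.

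The guanylate-binding proteins form oligomers on the membranes of pathogens and their vacuoles, and all 3 of the members fell. Gbp7 was at 30.2, 35.1, 30.6 and 34.96 TPM in controls and at 19.6, 16.6, 22.1 and 22.6 TPM in knockouts, a change of -0.67 ± 0.10 (adjusted p = 0.000452). Gbp3 was at 37.9, 41.9, 36.9 and 44.6 TPM against 22.0, 20.01, 26.1 and 30.6 TPM (-0.70 ± 0.12, adjusted p = 0.00109). Gbp2 was at 116, 125, 99.998 and 119 TPM against 68.3, 59.4, 85.6 and 90.8 TPM (-0.60 ± 0.12, adjusted p = 0.00336). In each of them all 4 knockouts lay below all 4 controls, and knockout 2 was lowest.

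Of the membrane and other effectors, Cmpk2 fell from 27.2, 26.1, 26.0 and 24.8 TPM to 11.3, 12.6, 16.5 and 18.2 TPM (-0.81 ± 0.13, adjusted p = 0.000662), without overlap. Rsad2, next to it, was at 6.41 ± 0.841 TPM in controls and 6.89 ± 1.73 TPM in knockouts (n = 4 each; adjusted p = 0.806). Ifi35, a partner of NMI in interferon signalling, fell from 65.1, 71.0, 69.3 and 67.4 TPM to 50.4, 50.03, 56.8 and 57.3 TPM (-0.34 ± 0.06, adjusted p = 0.00187), also without overlap. The largest fall among the members was that of Ifi27l2a, from 284 ± 52.8 to 155 ± 50.8 TPM (n = 4 each; -0.90 ± 0.20, adjusted p = 0.00529), with knockout 4 inside the range of the controls. Rtp4 fell from 39.8 ± 3.47 to 25.9 ± 5.59 TPM (adjusted p = 0.00451) and Ifi44 from 10.96 ± 0.887 to 7.05 ± 1.71 TPM (adjusted p = 0.00702), both without overlap. Parp14 (-0.30 ± 0.09, adjusted p = 0.0248) and Xaf1, a pro-apoptotic protein (-0.44 ± 0.14, adjusted p = 0.0317), fell less, and Xaf1 overlapped. Bst2 (-0.24 ± 0.10, adjusted p = 0.0845) and Trim30a, a TRIM protein that dampens Toll-like receptor signalling (-0.06 ± 0.10, adjusted p = 0.742), did not pass.

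Usp18, the protease that removes ISG15 and also blocks IFNAR2 signalling, fell from 31.3, 33.8, 31.1 and 33.5 TPM to 18.7, 20.1, 25.6 and 26.0 TPM (-0.52 ± 0.10, adjusted p = 0.00320), without overlap. Isg15 itself was at 29.8, 37.5, 42.9 and 37.1 TPM in controls and at 16.6, 19.1, 33.0 and 31.6 TPM in knockouts (-0.58 ± 0.20, adjusted p = 0.0502), with knockouts 3 and 4 inside the control range. This adjusted p crossed the threshold with quantile normalization (0.0361), library weights (0.0329), a filter of 5 TPM (0.0467) and median-ratio scaling (0.0499). It also did so without control 1 (0.0396), knockout 3 (0.0154) or knockout 4 (0.0255), whereas Isg15 stood at 0.131 without knockout 2. Herc6, the ISG15 ligase of mice, did not pass (-0.29 ± 0.11, adjusted p = 0.0715). The knockout libraries thus split for Isg15, with 1 and 2 low and 3 and 4 near the controls.

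The same split ran through the list. Knockouts 1 and 2 both lay below knockouts 3 and 4 for 30 of the 36 members (the share of all genes is not given here). The median deviation of the members was -0.43, -0.47, -0.17 and -0.15 in knockouts 1 to 4. In controls 1 to 4 it was -0.16, 0.01, 0.08 and 0.10, so knockouts 3 and 4 lay near control 1. The median of all genes was between -0.05 and 0.04 in the knockouts. Leaving out knockout 1 or knockout 2 moved the median fold change of the members to -0.27 or -0.25. Of the 17 calls, 13 held whichever library was left out; Irf1, Parp14, Xaf1 and Oas1g each lost theirs without knockout 1 or without knockout 2, among others, with adjusted p of up to 0.0912. Irf1 and Xaf1 also lost theirs with no filter (0.0505 and 0.0586), and Irf1 with no variance trend (0.0565).

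**Figure D4:**
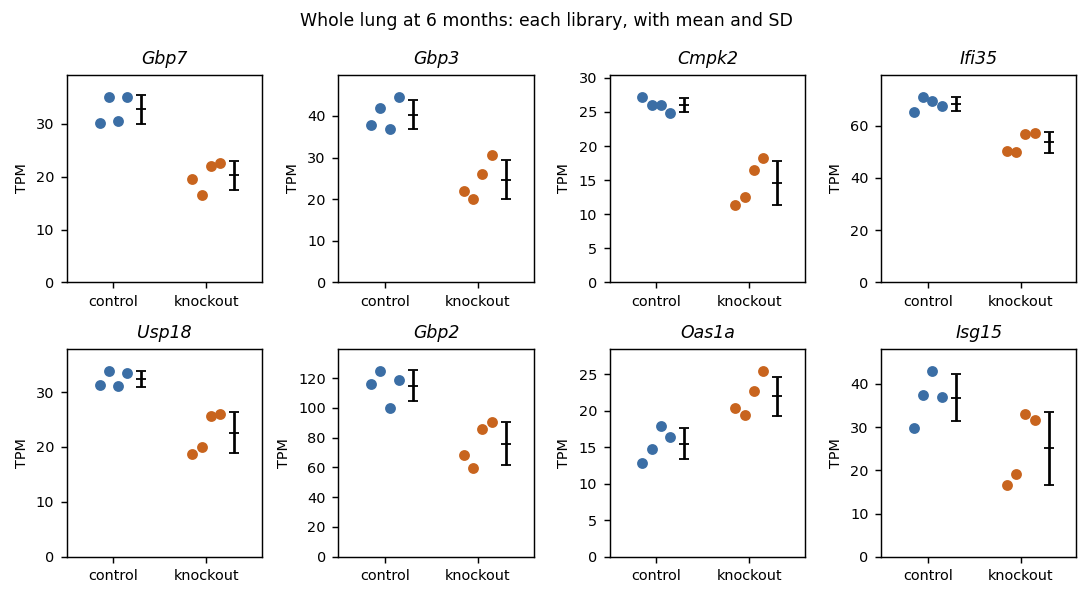
TPM of 8 members in each whole-lung library at 6 months (blue, controls; orange, knockouts; 4 each), with the mean and SD beside the points and axes that start at 0. For Gbp7, Gbp3, Cmpk2, Ifi35, Usp18 and Gbp2 all knockouts lie below all controls, for Oas1a all lie above, and for Isg15 2 knockouts fall inside the range of the controls.

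The IFIT proteins, which grip viral RNA that lacks the cap marks of the host, parted. Ifit1 fell from 24.7 ± 3.94 to 16.9 ± 3.07 TPM (n = 4 each; -0.52 ± 0.14, adjusted p = 0.0157) and Ifit2 from 19.1 ± 1.35 to 14.2 ± 1.64 TPM (-0.40 ± 0.09, adjusted p = 0.00715). Their neighbour Ifit3 was at 59.1, 71.2, 71.0 and 81.7 TPM in controls and at 55.9, 55.4, 72.5 and 87.5 TPM in knockouts (-0.08 ± 0.14, adjusted p = 0.746), and this small difference turned positive without knockout 1 or without knockout 2. Ifit3b did not pass (-0.16 ± 0.13, adjusted p = 0.413).

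Among the transcription factors, Irf1 fell from 138 ± 14.1 to 110 ± 13.5 TPM (n = 4 each; -0.32 ± 0.10, adjusted p = 0.0280), with overlap. Irf7 was at 21.8, 30.2, 30.4 and 28.4 TPM in controls and at 18.3, 18.7, 26.1 and 28.1 TPM in knockouts (-0.28 ± 0.15, adjusted p = 0.2003), again with knockouts 1 and 2 below all controls and knockouts 3 and 4 among them. Irf9 (-0.27 ± 0.09, adjusted p = 0.0518) and Stat2 (-0.21 ± 0.17, adjusted p = 0.413) did not pass.

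The oligoadenylate synthetases went both ways. Oas1a rose from 12.9, 14.8, 17.9 and 16.3 TPM to 20.4, 19.4, 22.7 and 25.4 TPM (0.48 ± 0.11, adjusted p = 0.00731), with all knockouts above all controls. Oas1g rose from 1.15, 1.26, 2.47 and 1.84 TPM to 3.41, 2.81, 2.81 and 2.44 TPM (0.55 ± 0.17, adjusted p = 0.0296), with knockout 4 just below control 3. Oasl2, a relative with a ubiquitin-like tail, fell from 39.9 ± 4.30 to 28.4 ± 3.75 TPM (n = 4 each; -0.48 ± 0.10, adjusted p = 0.00485), without overlap. Oas2, Oas3 and Oasl1 did not pass (-0.17, -0.07 and -0.41). Nor did the Mx genes (-0.34 ± 0.17 for Mx1 and -0.32 ± 0.16 for Mx2, adjusted p = 0.165 and 0.172). The 4 sensors Ifih1, Ddx58, Dhx58 and Zbp1, which recognise foreign or misplaced nucleic acid, did not pass either, with differences from -0.08 to 0.01.

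Pathway genes outside the 36 moved in both directions at 6 months, where 15.9% of all genes tested were higher and 13.9% lower. Of the 24 interferon-gamma-induced genes tested, 11 fell and 2 rose, with a median of -0.44. Gbp6 fell from 35.2, 42.3, 38.4 and 37.9 TPM to 13.3, 9.87, 13.8 and 16.5 TPM (-1.48 ± 0.13, adjusted p = 6.86e-06), and Gbp10 from 3.84 ± 0.870 to 0.551 ± 0.297 TPM (n = 4 each; adjusted p = 3.98e-05). Gbp9 (-0.80, adjusted p = 6.56e-05) and Gbp4, Gbp8, Igtp, Irgm2, Ifi47, Tgtp1, Tgtp2 and Ido1 fell as well. The 2 that rose were Cd274, the checkpoint ligand PD-L1, from 18.0 ± 1.49 to 34.8 ± 3.15 TPM (adjusted p = 1.21e-05), and Nos2, the inducible nitric oxide synthase, from 3.92 ± 0.356 to 11.04 ± 2.87 TPM.

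The kinase gene Tyk2 rose (0.36 ± 0.11, adjusted p = 0.0321). Of the 6 receptor genes, 3 rose: Il10rb and Ifngr2 by 0.60 ± 0.07 and 0.58 ± 0.07 (adjusted p = 8.32e-05 and 8.78e-05), and Ifnar2 by 0.22 ± 0.06 (adjusted p = 0.0119). Of 15 sensing genes 6 rose and none fell, led by Tlr7, an endosomal receptor of single-stranded RNA, from 7.88 ± 1.06 to 21.9 ± 5.39 TPM (adjusted p = 8.02e-05), with Irf5, Tlr4, Tmem173 (STING), Irf8 and Ikbke. Of 8 inhibitors, Socs3 and the phosphatase gene Ptpn6 rose, and Ptpn11 and Irf2 fell. Of 34 other type I genes, 3 rose (Ifi205, Slfn2 and Ifitm1) and 5 fell (Ifitm3, Slfn5, Ccl5, Sp100 and Isg20). The counts of each list stand beside 15.9% of all genes that were higher and 13.9% that were lower. Of the 35 pathway calls at 6 months, 6 were lost without 3 to 5 of the 8 libraries, with adjusted p of up to 0.0961. These were the calls of Tyk2, Irf2, Sp100, Isg20, Tgtp1 and Gbp8. Tyk2, Sp100 and Gbp8 also missed the threshold with no filter, and Irf2 and Sp100 with no variance trend (up to 0.0643).

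Ifng was at 0.535, 1.58, 0.619 and 1.95 TPM in controls and at 0.133, 0.202, 0.199 and 0.720 TPM in knockouts, too low to test, with knockouts 1, 2 and 3 below all controls. Ifnb1 was listed at 0 TPM in all 8 libraries. Markers of several cell types moved with the genotype. Of 9 T and NK cell markers, 4 fell and 1 rose: Gzma fell from 73.5 to 17.3 TPM, Nkg7 from 41.0 to 18.8 TPM, Ncr1 from 7.51 to 2.43 TPM and Klrb1c from 6.48 to 2.31 TPM, and Cd4, the co-receptor of helper T cells, rose from 7.57 to 17.3 TPM (group means); Cd3e, common to T cells, was at 9.81 and 10.1 TPM. The sum of the 9 was 141, 204, 179 and 213 TPM in controls and 130, 83.6, 102 and 106 TPM in knockouts 1 to 4. All 7 endothelial markers fell, their sum being 2539 to 2771 TPM in controls and 1612 to 1833 TPM in knockouts, and 3 of 5 B cell markers fell (251 to 325 against 145 to 253 TPM). Of 13 alveolar macrophage markers 9 rose and 2 fell (802 to 1101 against 5074 to 8609 TPM), and 7 of 10 AT2 markers rose. Of 4 club cell markers 3 fell (173859 to 217315 against 97458 to 112014 TPM), as did 5 of 6 ciliated cell markers. Of 13 interstitial macrophage and monocyte markers 8 rose, as did 4 of the 6 genes common to leukocytes. Their part in the values of the members was not tested.

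In AT2 organoids, no member passed the test, and 26 of the 29 members tested had lower means in knockouts. The median log2 fold change was -0.48, against 0.06 over all 12406 genes tested. Few genes of any kind passed with 2 libraries per genotype: 0 members were higher (0.218% of all genes) and 0 lower (0.387%), and at an unadjusted p under 0.05, 11 members were lower (37.9%, beside 16.8% of all genes) and 1 higher (3.45%, beside 19.7%). The groups did not overlap for 20 members with lower knockouts (32.0% of all genes) and for 1, Bst2, with higher knockouts (39.6% of all genes).

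Ifi27l2a had the largest difference, at 5.08 and 11.01 TPM in controls and 0.442 and 0.449 TPM in knockouts (-2.56 ± 0.37, adjusted p = 0.0605). Both of its knockouts were under 1 TPM, so it passed the filter through its controls alone. The same held for Xaf1, at 0.593 and 0.757 TPM in knockouts. Irf7 was at 7.12 and 8.24 TPM against 2.90 and 3.40 TPM (-1.06 ± 0.16, adjusted p = 0.0642), and Ifit1 at 8.75 and 13.1 TPM against 1.70 and 3.10 TPM (-1.82 ± 0.30, adjusted p = 0.0667). All knockouts of these genes lay below both controls. Dhx58 was at 4.65 and 4.53 TPM against 1.79 and 2.12 TPM (-0.92 ± 0.16, adjusted p = 0.0689). Zbp1, a sensor of Z-form nucleic acids that triggers necroptosis, was at 3.55 and 6.20 TPM against 0.879 and 1.08 TPM (-1.54 ± 0.28, adjusted p = 0.0701), and Mx1 at 24.2 and 28.7 TPM against 10.7 and 14.8 TPM (-1.01 ± 0.20, adjusted p = 0.0701). These 3 also showed no overlap.

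Isg15 was at 10.4 and 10.01 TPM in controls and at 6.70 and 8.53 TPM in knockouts (-0.38 ± 0.16, adjusted p = 0.164), without overlap. Ifit3 was at 12.1 and 3.44 TPM against 2.57 and 5.17 TPM (-0.70 ± 0.61, adjusted p = 0.434): its controls differed by more than the genotypes did, and the sign turned without control 1. Ifit2, Ifit3b and Rsad2 were likewise higher in control 1 than in control 2. Bst2 was at 69.4 and 53.2 TPM in controls and at 83.4 and 85.7 TPM in knockouts (0.47 ± 0.16, adjusted p = 0.120). With control 1 or control 2 left out, which leaves 1 control, the median fold change of the members was -0.40 or -0.69. The median of all genes was then 0.07 or 0.03. With either knockout left out instead, 0 members and 0 genes of any kind were called.

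**Figure D5:**
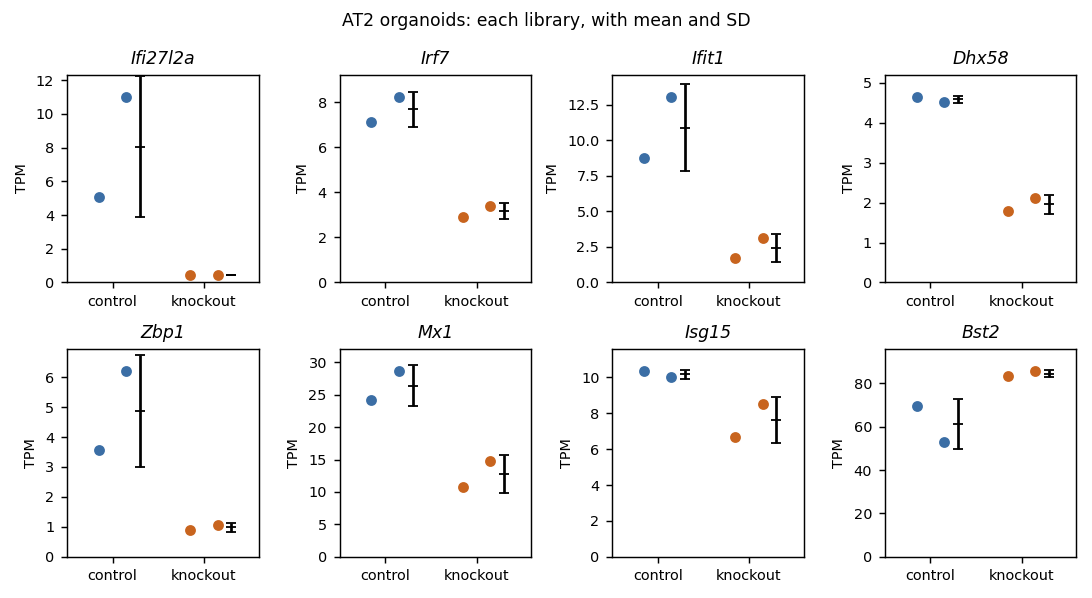
TPM of 8 members in each organoid library (blue, controls; orange, knockouts; 2 each), with the mean and SD beside the points and axes that start at 0. Both knockouts lie below both controls for every gene drawn except Bst2, where both lie above.

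None of the pathway genes outside the 36 passed in organoids. The 15 interferon-gamma-induced genes tested had a median of -0.55, the 27 other type I genes one of -0.39 and the 8 inhibitors one of 0.35. The antiviral membrane gene Ifitm3, named after its values were seen, was at 1830 ± 849 TPM in controls and 217 ± 31.7 TPM in knockouts (n = 2 each; -3.00, adjusted p = 0.0567). Ifnb1 and Ifng were listed at 0 TPM. Of 9 T and NK cell markers 7 were at 0 in every library, and the 6 genes common to leukocytes summed to 1.25 to 1.61 TPM in controls and 2.14 to 3.62 TPM in knockouts. The alveolar macrophage markers summed to 5.06 to 9.18 TPM in controls and 21.5 to 24.6 TPM in knockouts, with none of the 3 tested called. The neutrophil markers summed to 7.76 to 8.30 TPM against 0.423 to 1.16 TPM, and Retnlg, the only one tested, fell. Airway epithelial markers moved with the genotype: the 5 ciliated cell markers tested had a median of -1.72, the 4 club cell markers summed to 8482 to 11857 TPM in controls and 2268 to 2652 TPM in knockouts with 1 called lower, and the 10 AT2 markers summed to 16271 to 49168 TPM against 75609 to 83057 TPM. Their part in the values of the members was not tested.

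The effect of the knockout was then compared between kinds of sample, as a difference of the within-table fold changes. Between lungs at 6 months and 6 days, 1 of 36 members differed, where 2.73% of 13875 genes did: Ifit1, at 0.36 at 6 days and -0.52 at 6 months, a difference of -0.88 ± 0.22 (SE, adjusted p = 0.0356). Ifit2 had values of 0.41 and -0.40 (difference -0.82 ± 0.20, adjusted p = 0.0559), Mx1 of 0.60 and -0.34 (-0.94 ± 0.28, adjusted p = 0.0898) and Isg15 of 0.30 and -0.58 (-0.88 ± 0.29, adjusted p = 0.128). The Ifit1 call was absent when any of 9 of the 14 libraries was left out, and with the smaller degrees of freedom of both times. For the 3 guanylate-binding proteins and Cmpk2 the differences between the times ran from -0.11 to 0.14. Their SE were 0.22 to 0.27 and their adjusted p 0.828 to 0.875. Of the 15 members that fell at 6 months, 13 had lower means in knockouts at 6 days as well, 12 of the 13 tested in organoids did, and 3 of the 13 tested in AT2 cells did. Among all members tested, 26 of 36 were lower at 6 days, 26 of 29 in organoids and 4 of 27 in AT2 cells. Among all genes tested, the numbers were 9084 of 14154, 5600 of 12406 and 4417 of 12109.

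Between AT2 cells and lungs at 6 days, 0 of 27 members differed by the adjusted test, where 1.06% of 11766 genes did. For 26 of the 27 the fold change was more positive in AT2 cells, and the median difference was 0.55, beside 0.20 over all genes. At an unadjusted p under 0.05, 13 members (48.1%) had a more positive fold change in AT2 cells, beside 13.3% of all genes, and 0 a more negative one, beside 3.35%; the smallest adjusted p was 0.123, for Rtp4. Without knockout 1 of the lungs, 4 members differed, a count for which no share of all genes is given here.

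Between organoids and AT2 cells, 7 of 23 members differed, all with a more negative fold change in organoids, where 9.29% of 11351 genes differed in either direction. The largest differences were those of Ifi27l2a (0.38 in AT2 cells and -2.56 in organoids, adjusted p = 0.0187), Zbp1 (0.79 and -1.54, adjusted p = 0.00985), Irf7 (0.61 and -1.06, adjusted p = 0.00277) and Rtp4 (0.49 and -1.10, adjusted p = 0.0154). In organoids Ifi27l2a passed the filter through its controls alone. Dhx58 (0.60 and -0.92, adjusted p = 0.00419), Oasl2 (0.53 and -0.96, adjusted p = 0.0216) and Parp14 (0.34 and -0.52, adjusted p = 0.0453) were the others. Bst2 was higher in knockouts of both kinds, by 0.47 in each (difference 0.00 ± 0.25, adjusted p = 0.995). The 7 calls are uncertain: 0 members differed with the smaller degrees of freedom of both samples. Leaving out an organoid library leaves 1 in its group, too few to check these calls.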

How the data were processed

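Poly(A)-selected TruSeq libraries without strand information were sequenced, per the labels' protocols. The authors deposited TPM, 1 table for each kind of sample; the submitters' processing notes name the GRCm38 genome, with aligner and quantifier not given in the sources used here. Where a symbol was listed again, the row with the higher mean was kept (24970 of 24972 rows). TPM hold no counts, so depth is unknown, and only genotype differences within a table, and how these differed between tables, were tested. Knockout was compared with control in each table by a limma fit (limma 3.58.1, R 4.3.3) of log2(TPM + 1). The moderated variance followed a trend, tests were two-sided, and p-values were adjusted by Benjamini and Hochberg over every gene past the 1 TPM filter. Differences between tables used the separate spread of each. On simulated data the fits within tables recovered known changes, but with 2 organoid libraries per genotype none was called, and the differences between tables gave a larger share of false calls than the threshold allows, most of all organoids minus AT2 cells, for which the alternative with smaller degrees of freedom was added. Gene positions came from GENCODE M21 (36 of 36 members matched), promoters and microRNAs from RefSeq GRCm38.p6.

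The 36 members and all lists were chosen with earlier results of these data known. Per-library values were given for Isg15, Irf7 and Ifit3 and for the 6 members with the smallest adjusted p in each comparison; members that passed, up to 4 passing genes per pathway list, and Ifnb1 and Ifng were also named; 1 pathway gene is not reported here. Other genes, among them the remaining pathway calls and the cell markers, were named after their values were seen. The alternatives tried were these: a pseudocount of 0.1, a filter of 5 TPM or none, median-ratio scaling, quantile normalization, no trend, library weights, a replicate block, leaving out each library, a shared spread and, added after the data were seen, smaller degrees of freedom for the differences.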

Additional observations from a re-analysis of the deposited data

Results flagged for a closer look

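Among 72 groups of 4 lungs at 6 months, 4 held a library far from the other 3, about as many as the 1 in 20 that chance gives. Control 3 was highest for Oas2, at 11.7 TPM beside 7.36 to 7.51 TPM, and for Oas3, at 3.57 TPM beside 1.99 to 2.18 TPM. Control 1 was lowest for Rtp4, at 34.7 TPM beside 41.0 to 42.3 TPM. Knockout 4 was highest for Zbp1, at 32.0 TPM beside 20.6 to 21.6 TPM.

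The knockout effect differed between kinds of sample for 8 members by the test of the difference itself. For Ifit1 the difference of lungs at 6 months minus 6 days was -0.88. For organoids minus AT2 cells it was -1.67 for Irf7, -1.52 for Dhx58, -2.32 for Zbp1, -1.59 for Rtp4, -2.95 for Ifi27l2a, -1.49 for Oasl2 and -0.86 for Parp14. These calls are uncertain, since 0 members differed in either comparison with the smaller degrees of freedom of both tables. The call of Ifit1 was absent without any of 9 of the 14 libraries. Leaving out an organoid library leaves 1 in its group, too few to check the calls between organoids and AT2 cells. In organoids Ifi27l2a passed the filter through its controls alone.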

How the results depend on the processing

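In lungs at 6 months, 12 to 19 members fell when each library was left out in turn (10.9% to 13.2% of all genes). Under the same settings 1 or 2 rose (13% to 16.1% of all genes). With a filter of 5 TPM 1 rose (17.6% of all genes), since Oas1g was no longer tested. In AT2 cells 2 members were higher with library weights (7.78% of all genes). Leaving out a library gave 0 to 1 higher (1.47% to 7.55% of all genes) and 0 to 1 lower (0.0487% to 2.32%). In lungs at 6 days, 1 was higher and 1 lower with median-ratio scaling (6.68% and 6.02% of all genes). The counts were 1 and 3 with quantile normalization (6.51% and 6.82%), and 5 and 23 with library weights (27.3% and 32.1%). Leaving out a library gave 0 to 1 higher (0.287% to 7.19% of all genes) and 0 to 6 lower (0.356% to 7.08%). In organoids 2 were lower with library weights, and leaving out a library gave 0 to 2 higher and 0 to 14 lower. With the replicate block, 1 member was higher in AT2 cells (5.18% of all genes) and 2 were lower in organoids (2.23%). In lungs at 6 months 18 were then lower and 2 higher (14.7% and 16.8% of all genes), and Isg15 passed (adjusted p = 0.00520). Same-numbered libraries share only a number. Their deviations from the group means correlated by -0.17, 0.076 and 0.17 for AT2 cells. For the lungs at 6 days the values were -0.15, 0.0053 and -0.14, for those at 6 months 0.080, 0.11, 0.22 and 0.093, and for organoids -0.074 in both pairs. In lungs at 6 months every library correlated best with its own number, which is a hint from the data and not from the design.

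For the difference between lungs at 6 months and 6 days, 3 members differed with median-ratio scaling and 3 with quantile normalization. The count was 2 with a shared spread, 0 with the smaller degrees of freedom and 0 to 2 without a library. Between AT2 cells and lungs at 6 days leaving out a library gave 0 to 4, and between organoids and AT2 cells 0 to 16, with 4 at a filter of 5 TPM and 0 with the smaller degrees of freedom. The signs of uncalled genes turned for Ifit3 without a library in AT2 cells (-0.32 to 0.027), lungs at 6 months (-0.21 to 0.0098, and 0.0062 without knockout 1) and organoids (-1.48 to 0.080), and for Irf7 in lungs at 6 days with library weights (-0.075) and without a library (-0.059 to 0.28, and -0.026 without control 3). The cause was not tested. TPM give no depth, so how counting error limits the low members is unknown.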
